A study of Homo sapiens with 5 samples.

Results

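The cells compared here were neurons of the last phase of a GnRH neuron differentiation, collected on day 24 (D24) and day 26 (D26). They were chosen from each day's deposited count table as barcodes with at least 1500 unique molecular identifiers (UMIs), at least 1000 genes detected and a mitochondrial share under 20%. This kept 9110 of 9905 barcodes at D24 and 11060 of 12171 at D26, so that 20170 cells entered, from tables that hold 44007 barcodes in the whole series. Both groups came from WA09, a human embryonic stem cell line of wild type genotype, and no treatment is labelled for either. By the study's methods the protocol is dual-SMAD inhibition, which turns stem cells into neural progenitors, then FGF8, and last the Notch inhibitor DAPT, which pushes progenitors out of division. Each day is 1 library of 10x Genomics 3' single-cell RNA sequencing, prepared after papain dissociation. With 1 library a day no test was possible, and day and library cannot be told apart. The D22 library, of 9539 cells, was used only for earlier levels. The labels give no separate cultures, so each library stands for 1 differentiation of 1 line.

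GnRH neurons secrete the decapeptide that drives the reproductive axis. In the embryo they arise in the olfactory region and migrate into the forebrain along axons. A newborn neuron first switches off its proneural program and grows an axon. It later adds voltage-gated channels, transmitter receptors and the adhesion molecules that hold synapses together. The question asked of the data was which of these steps were visible over the final 2 days sampled.

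The depth was 70240335 UMIs at D24 and 99677924 at D26, with medians of 7180.5 and 8486 UMIs and of 2412 and 3013.5 genes per cell. The median mitochondrial share was 3.96% and 4.39%. The libraries shared 36 barcodes. Levels are given in CPM, the UMIs of a gene summed over cells and scaled to the same total in each library. Ratios are D26 over D24 on the log2 scale, with exact 95% intervals that cover counting error only. Of 9757 genes with a mean of at least 5 CPM, 720 (7.38%) were at least 2-fold higher at D26 and 197 (2.02%) at least 2-fold lower. Here "rose" and "fell" mean a change of at least 2-fold. The median log2 ratio of the 9757 genes was 0.34, so a typical gene was higher at D26. Transcripts of 87 ribosomal protein genes summed to 200017 CPM at D24 and 146287 at D26, and the nuclear RNA MALAT1 took 6.74% and 5.07% of UMIs. With the median set to 0, 245 genes (2.51%) rose and 376 (3.85%) fell, so the excess of rises over falls rests on the scale. A gene past 2-fold keeps its sign on that scale, though it may no longer pass 2-fold.

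The 15 genes with the steepest falls were led by EOMES, RSPO3 and GNG5. These 15 falls and 14 of the steepest rises were taken from genes with a mean of at least 25 CPM. EOMES, a T-box factor of intermediate progenitors and newborn glutamatergic neurons, was at 46.1 CPM at D22, 50.8 at D24 and 0.652 at D26. That was a 77.9-fold fall (log2 ratio -6.28, interval -6.66 to -5.93). RSPO3, a secreted amplifier of Wnt signalling, stood at 140 CPM at D22, climbed to 460 at D24 and was at 11.6 at D26 (-5.31, interval -5.40 to -5.23). Both were higher at D24 than at D22. NEUROG1, the proneural factor of the olfactory placode, is not among the 15 because its mean was under 25 CPM. It was lower at each day sampled, with 496, 46.4 and 1.37 CPM. FSTL5, a follistatin-like gene, rose and fell within the window, at 17.6, 198 and 18.6 CPM. So did the neuropeptide genes TRH, with 75.4, 195 and 19.5 CPM, and NTS, with 3.42, 44.2 and 7.23 CPM. FSTL5, TRH and NTS were each highest at D24 of the days compared.

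The heterotrimeric G protein gamma subunits GNG5 and GNG8 were also among the steepest falls. GNG5, which is typical of dividing progenitors, was at 807 CPM at D22, 321 at D24 and 22.001 at D26 (-3.87). GNG8, a gamma subunit of immature olfactory neurons, was at 157, 369 and 34.4 CPM (-3.43). CNTN2, an adhesion molecule on pioneer axons, was at 57.0, 91.7 and 7.37 CPM. The chloride channel family gene CLIC1, which overlaps DDAH2 on the same strand so that some reads are uncertain, went from 269 to 40.7 CPM. The remaining genes among the 15 steepest falls were S100A13, DMRTA2, CENPW, ABCA1, NKAIN4 and SPRY1, with log2 ratios from -2.97 to -2.21. SPRY1, a feedback inhibitor of FGF signalling, had already fallen from 459 CPM at D22 to 69.9 at D24.

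**Figure D1:**
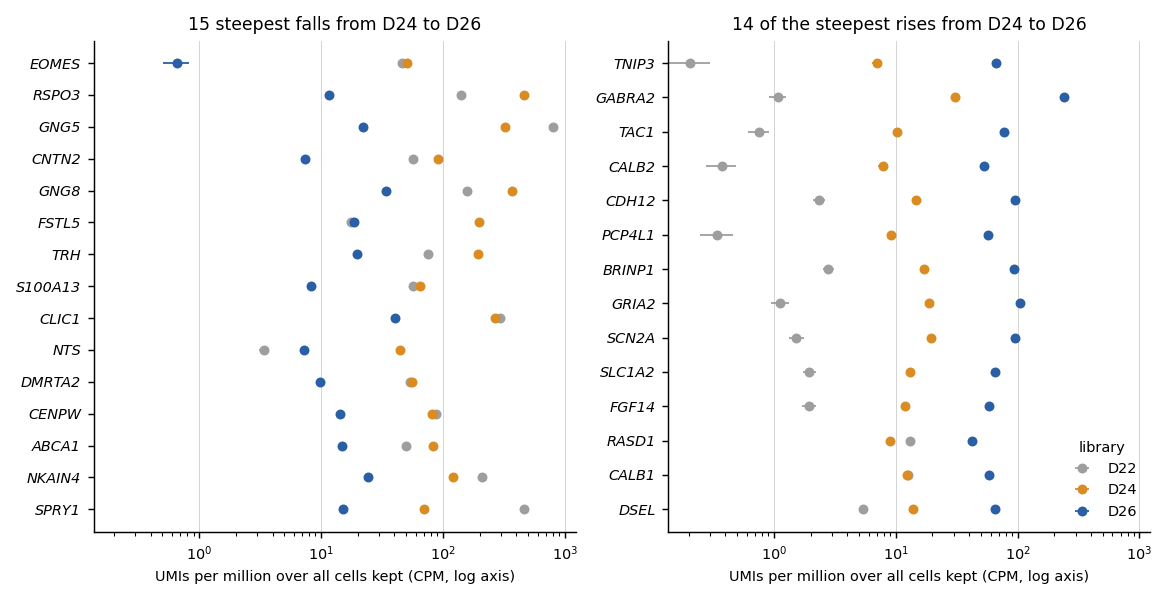
Levels in CPM (log axis) of the 15 genes with the steepest fall and of 14 with the steepest rises from D24 to D26 among genes with a mean of at least 25 CPM, in the D22, D24 and D26 libraries. Points are 1 library each and bars are exact 95% Poisson intervals. In the left panel RSPO3 goes from 460 CPM at D24 to 11.6 at D26, and in the right panel GABRA2 goes from 30.6 to 241.

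Receptor, channel and calcium-binding protein genes were among the 14 steep rises. GABRA2, a GABA-A receptor subunit, was at 1.07 CPM at D22, 30.6 at D24 and 241 at D26. It was 7.89-fold higher at D26 than at D24 (log2 ratio 2.98, interval 2.92 to 3.04). GRIA2, the AMPA receptor subunit that limits calcium entry, was at 1.13, 18.9 and 104 CPM. SCN2A, the sodium channel of the early axon initial segment, was at 1.53, 19.4 and 96.0 CPM. It overlaps another annotated transcript on the same strand. These 3 genes were all under 2 CPM at D22 and all at 96.0 CPM or above at D26.

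The calcium-binding proteins CALB2 and CALB1 reached 53.1 and 58.7 CPM from 7.84 and 12.4 CPM at D24. TAC1, the precursor of substance P, was at 0.755, 10.3 and 77.8 CPM, and CDH12, a brain cadherin, at 2.33, 14.6 and 94.4 CPM. TNIP3, BRINP1, PCP4L1, FGF14, SLC1A2, RASD1 and DSEL completed the 14, with log2 ratios from 2.23 to 3.26. SLC1A2 encodes a glutamate transporter best known from astrocytes. It was at 13.2 CPM at D24 and 65.3 at D26. Of the 7 astrocyte markers checked it was the only member at 5 CPM or above, and GFAP was at 0.114 and 0.0702 CPM. The other astrocyte markers, with AQP4 and ALDH1L1 at 4 UMIs or fewer in each library, stayed under 1 CPM on both days.

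The shares of cells with a UMI were compared at equal depth. After every cell was thinned to 1500 UMIs, RSPO3 was detected in 41.0% of D24 cells (interval 40.0 to 42.0%) and 1.28% of D26 cells (1.08 to 1.51%), against 73.3% and 5.93% without thinning. EOMES was detected in 6.14% and 0.0904%, against 23.9% and 0.479% without thinning. GABRA2 went the other way, from 4.28% (3.87 to 4.72%) to 28.0% (27.1 to 28.8%), and from 15.5% to 68.7% without thinning. No cell kept was shallower than the thinned depth. The intervals are over cells of 1 library and do not cover differences between libraries.

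The upstream 250 bases of 2 genes that fell and 2 that rose are shown, because their windows lie outside or at the edge of the annotated gene and so give the sequence next to the start of transcription. They are from RefSeq on GRCh38.p14, 5' to 3' on the gene's strand. Capitals mark TAATTA, the core bound by many homeodomain factors.
RSPO3, chr6:127118421-127118670, plus strand: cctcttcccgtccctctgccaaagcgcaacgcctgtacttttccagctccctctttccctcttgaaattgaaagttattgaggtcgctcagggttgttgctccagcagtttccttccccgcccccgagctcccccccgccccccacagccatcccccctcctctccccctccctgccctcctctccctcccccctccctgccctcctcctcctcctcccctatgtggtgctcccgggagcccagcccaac
GNG5, chr1:84506582-84506831, minus strand: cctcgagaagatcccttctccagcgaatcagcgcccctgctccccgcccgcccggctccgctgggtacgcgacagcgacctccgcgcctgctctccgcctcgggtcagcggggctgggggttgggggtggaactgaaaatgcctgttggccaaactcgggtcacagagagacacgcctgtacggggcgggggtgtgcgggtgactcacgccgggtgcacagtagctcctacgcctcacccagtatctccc
TAC1, chr7:97731836-97732085, plus strand: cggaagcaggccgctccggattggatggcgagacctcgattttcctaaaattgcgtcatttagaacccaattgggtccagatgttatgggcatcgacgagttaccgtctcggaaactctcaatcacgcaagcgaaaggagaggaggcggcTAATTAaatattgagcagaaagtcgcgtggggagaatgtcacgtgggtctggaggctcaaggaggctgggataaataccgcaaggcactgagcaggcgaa
BRINP1, chr9:119369436-119369685, minus strand: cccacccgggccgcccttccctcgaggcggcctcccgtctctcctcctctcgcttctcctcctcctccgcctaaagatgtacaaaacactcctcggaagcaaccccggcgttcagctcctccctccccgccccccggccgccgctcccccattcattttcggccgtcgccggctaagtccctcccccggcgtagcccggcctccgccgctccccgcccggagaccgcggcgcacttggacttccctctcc
GC content was 64.8% for RSPO3, 68.0% for GNG5, 52.4% for TAC1 and 71.2% for BRINP1. TAATTA starts 100 bases before the TAC1 start and is not among the letters of the other windows shown. RefSeq windows matched 25 of the 29 genes with the steepest changes named here. The table held windows for 7671 of the 9757 genes compared, for 557 of the 720 that rose and for 139 of the 197 that fell. TAATTA was present in 2.15% of the 11327 windows of genes compared, in 3.04% of the 922 windows of genes that rose and in 2.90% of the 207 of genes that fell. The E-box CAGCTG was present in 12.7%, 15.2% and 12.6%, and the T-box core TCACAC, searched on both strands like the others, in 7.14%, 6.40% and 8.21%. None of the 3 motifs overlaps another, and windows of a gene with several starts can overlap. These shares are descriptions of letters in a window and were not tested.

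Voltage-gated and related channels carry the action potential. Of 31 sodium, calcium and potassium channel genes at 5 CPM or above, 14 rose (45.2%) and 0 fell, beside 7.38% and 2.02% of all genes, and the median log2 ratio was 0.96 against 0.34 over all genes. With the median set to 0, 6 rose. Besides SCN2A, the small-conductance potassium channel KCNN2 went from 3.06 to 14.7 CPM (2.27, interval 2.06 to 2.48) and the channel-interacting protein KCNIP1 from 2.12 to 8.59 CPM. SCN3A, the sodium channel of fetal neurons, went from 47.7 to 113 CPM. At the low end CACNA1H, CACNA2D1 and KCNH7 had log2 ratios of -0.12, -0.06 and -0.04. A further 24 of the 55 genes listed were under 5 CPM.

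Adhesion molecules and scaffolds hold the synapse together. Of 26 compared, 9 rose and 0 fell, beside 7.38% and 2.02% of all genes, with a median of 0.78. With the median of all genes set to 0, 7 rose. LRRTM3, a postsynaptic partner of neurexins, went from 4.80 to 23.3 CPM, NRXN3, a presynaptic neurexin, from 11.0 to 49.6 CPM and the scaffold DLG2 from 24.4 to 86.8 CPM. CNTNAP4, NLGN1 and SHANK3 had log2 ratios of -0.55, -0.26 and 0.05. Of 12 ionotropic receptor and chloride transporter genes compared, 4 rose and 0 fell, beside the same shares of all genes, or 3 and 1 with the median set to 0. The AMPA receptor subunits GRIA4 and GRIA1 went from 6.09 to 42.5 and from 14.7 to 39.7 CPM, and the GABA-A subunit GABRA3 from 1.95 to 11.5 CPM. The lowest were the nicotinic subunits CHRNA5 (-0.81) and CHRNA4 (0.02) and the chloride importer SLC12A2 (-0.30). The chloride exporter SLC12A5 was at 37.5 and 63.0 CPM.

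The release machinery was mixed. Of 31 genes of synaptic vesicles and release, 6 rose and 1 fell, beside 7.38% and 2.02% of all genes, and the median of 0.36 was close to that of all genes. With the median set to 0, 3 rose and 2 fell. SYT13 went from 2.51 to 15.1 CPM, the vesicle protein SYP from 49.7 to 156 CPM and RAB3C from 27.4 to 81.2 CPM. SV2C fell from 9.51 to 4.58 CPM, and CADPS2 and SNCG had ratios of -0.99 and -0.61. Of 29 genes of the axonal cytoskeleton only MAPT, the gene of tau, rose, from 164 to 348 CPM, and 0 fell, and 0 of them passed 2-fold with the median set to 0. The tubulin TUBB2A was at 1673 and 1294 CPM and the thymosin TMSB10 at 8298 and 7114 CPM. Near-identical tubulin copies make the split of reads between them uncertain.

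Most general neuron markers were high on both days. STMN2, a growth-cone protein, was at 9035 and 8087 CPM, DCX, of migrating neurons, at 853 and 1091 CPM and ELAVL3 at 305 and 320 CPM. NCAM1, a neural adhesion molecule, was the 1 gene of the 9 compared that rose, from 173 to 381 CPM, beside 7.38% of all genes, and 0 rose with the median set to 0. The label of both samples, neuron, was met by these markers. RBFOX3, also in this list, was not compared because its mean was under 5 CPM. It went from 1.47 to 7.16 CPM (2.29, interval 1.99 to 2.60). Markers of dividing progenitors were low. TOP2A was at 400 CPM at D22, 14.5 at D24 and 2.76 at D26, and all 5 of the 7 dividing-cell markers that reached 5 CPM fell, beside 2.02% of all genes. SOX2 was at 17.5 and 10.7 CPM.

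Axon guidance and migration genes included changes in both directions. Of 52 compared, 20 rose (38.5%) and 3 fell (5.77%), beside 7.38% and 2.02% of all genes, and the median was 0.52 against 0.34. With the median of all genes set to 0, 11 rose and 3 fell. The cadherins CDH12 and CDH8 rose, the latter from 4.76 to 22.3 CPM, and PLXNA2, a semaphorin receptor, went from 3.84 to 21.6 CPM. CHL1, a close relative of L1, went from 32.3 to 137 CPM. The falls were CNTN2, ROBO3 and NTNG2. ROBO3, the receptor known from commissural axons that cross the midline, went from 36.1 to 3.23 CPM (-3.48, interval -3.65 to -3.31). RELN, a secreted guide of migrating neurons, was at 16.8, 93.3 and 198 CPM.

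Neuropeptide genes split. Of 19 peptide and secretory granule genes compared, 4 rose and 5 fell, beside 7.38% and 2.02% of all genes, or 2 and 6 with the median set to 0. Besides TRH and NTS, CRH, the corticotropin-releasing hormone gene, went from 11.7 to 0.391 CPM (-4.90, interval -5.41 to -4.44). PNOC, the precursor of nociceptin, went from 1.17 to 12.4 CPM, the prohormone convertase PCSK1 from 46.6 to 120 CPM and SYBU from 13.7 to 32.2 CPM. Of the 10 olfactory signalling genes compared, 4 rose and 0 fell, beside the same shares of all genes, and 1 rose with the median set to 0. They were the olfactory G protein GNAL, which overlaps CHMP1B on the same strand, with 5.77 and 19.3 CPM, REEP1, RTP1 and GNAO1. GNG8 and LHX2, which the study counts among markers of immature olfactory neurons, are outside this list and fell. EMX2, another of those markers, was at 593 and 424 CPM.

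Transcription factors changed in both directions. Of 21 proneural and precursor factors compared, 5 rose and 2 fell, beside 7.38% and 2.02% of all genes. ONECUT3, MYT1L, ONECUT1, ONECUT2 and POU3F2, factors of differentiating neurons, were 2-fold or more higher, with ONECUT3 from 12.3 to 34.7 CPM and MYT1L from 24.9 to 65.8 CPM. NEUROD1 and ST18 fell, NEUROD1 from 39.4 to 14.7 CPM. With means under 5 CPM, NHLH2, EBF2 and NEUROG2 were not compared. They went from 6.90 to 2.45, from 7.30 to 2.42 and from 4.31 to 1.67 CPM, while NEUROD2 went from 0.214 to 0.472 CPM. NHLH1 and NEUROD4, used as cell type markers instead, went from 26.7 to 2.78 and from 4.43 to 0.783 CPM. In that marker list HES6 and DLL1 went up by less than 2-fold. With the median set to 0, 2 of the 21 rose and 4 fell. Among 11 glutamatergic lineage genes 4 rose and 4 fell, beside the same shares of all genes, or 2 and 4 on that scale. LHX2, a homeodomain factor of olfactory and cortical progenitors, went from 382 to 144 CPM and BARHL2 from 18.7 to 5.92 CPM. SLC17A6, the vesicular glutamate transporter, was at 67.6 and 59.6 CPM, and PPP1R17 at 299 and 396 CPM. Of 6 Notch pathway genes compared, 0 rose and DLK1 fell, from 78.8 to 38.7 CPM, beside 7.38% and 2.02% of all genes. DLK1 and JAG1, a Notch ligand, fell with the median set to 0. The ligands DLL3 and DLL1 served as cell type markers and are not in this list. DLL3 fell from 112 to 32.3 CPM over all cells, and DLL1 was at 6.99 and 8.82 CPM.

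**Figure D2:**
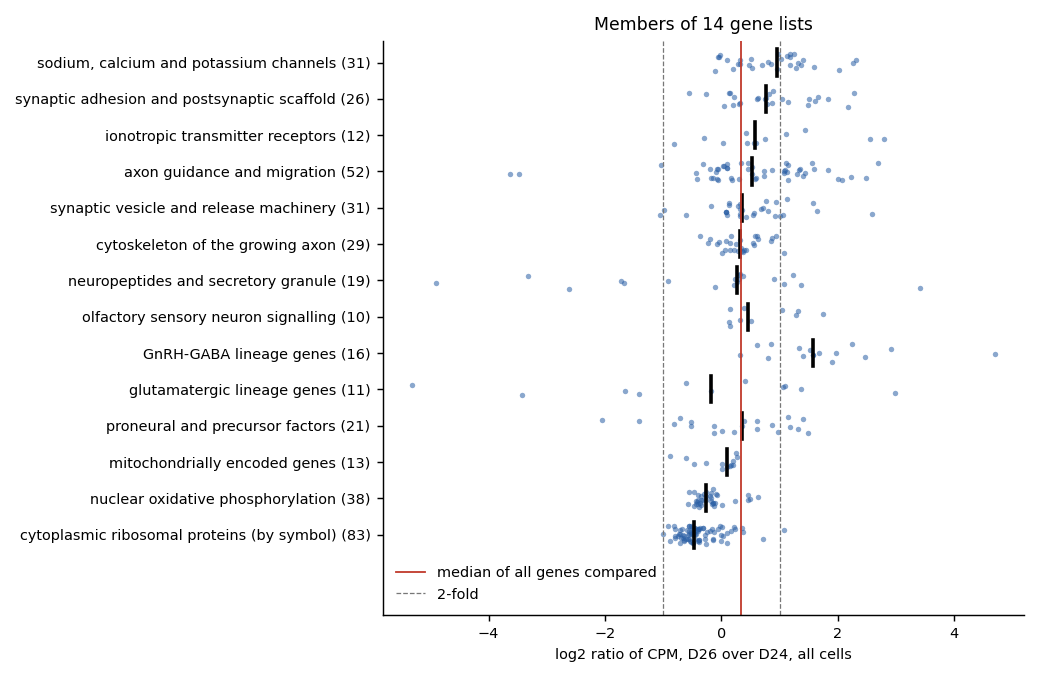
Log2 ratio of CPM, D26 over D24 over all cells, of each member of 14 gene lists with a mean of at least 5 CPM (points, with their number after the list's name). Black bars are list medians, the red line is the median of the 9757 genes compared and dashed lines mark 2-fold. The channel list has its median at 0.96, and the ribosomal protein list at -0.47.

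Genes of energy supply and translation stayed under 2-fold, apart from 2 ribosomal protein genes. Of 38 nuclear genes of oxidative phosphorylation, 0 passed 2-fold in either direction, but 34 lay below the median of all genes, and the list median was -0.26. ATP5MC2 was lowest, at 1218 and 821 CPM, and ATP5F1A highest, at 349 and 542 CPM. The 13 mitochondrially encoded genes had a median of 0.11 over a range of -0.89 to 0.26, and 0 passed 2-fold. With the median of all genes set to 0 the list median was -0.24 and 1 gene, MT-ND6, passed 2-fold downwards. Of 83 ribosomal protein genes compared, 79 lay below the median of all genes, with a list median of -0.47. RPL39, at 4622 and 2307 CPM, was the 1 that fell and RPL4, at 299 and 629 CPM, the 1 that rose. On the scale with the median set to 0, 14 fell and 0 rose. Copies of these genes in the genome make their counts uncertain.

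The ratio was also laid out by gene length. Of the genes compared, 9729 had a length in GENCODE v44 and were split into 5 groups of equal size. From the shortest group, up to 10.9 kb, to the longest, from 109 kb, the median log2 ratio was 0.18, 0.29, 0.33, 0.40 and 0.50. In the longest group 14.7% of genes rose, against 5.55% in the shortest. In the shortest 4.06% fell, against 1.54% in the longest. Many channel, adhesion and receptor genes are long. The order of the 5 medians was the same within the GnRH-GABA-like and the Glut-like cells described next. What part gene length or the library had in the changes of these lists was not tested.

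**Figure D3:**
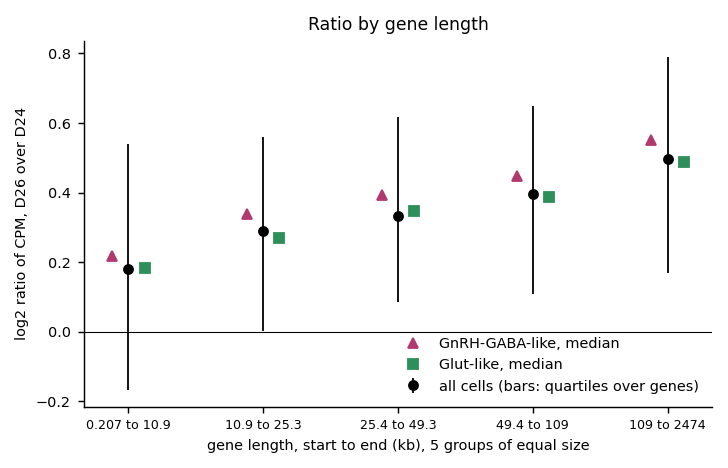
Median log2 ratio of CPM, D26 over D24, in 5 groups of genes of equal size by length in kb. Black points are all cells with bars for the quartiles over genes, triangles GnRH-GABA-like cells and squares Glut-like cells. The black points climb from 0.18 in the shortest group to 0.50 in the longest.

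Both libraries held cells of the same named classes, in different mixtures. The cells of both days were clustered together, with values centred within each library, and a cluster was named from marker genes. Names rebuilt in this way can differ from the study's. Without centring the libraries lay largely apart. The largest Glut-like cluster then held 7752 D24 and 27 D26 cells, and the next 43 and 4598. The largest GnRH-GABA-like cluster held 16 and 1413, while IRX-like cells were 472 and 253. Ratios within the Glut-like and GnRH-GABA-like classes thus compare cells joined by centring or by marker names. The shares that follow are with centring unless stated. GnRH-GABA-like cells, marked by DLX genes, SIX3 and SCGN among others, were 597 cells (6.55%, interval 6.05 to 7.08%) at D24 and 1935 (17.5%, 16.8 to 18.2%) at D26. Glut-like cells, marked by TBR1, EMX2, LHX1, LHX5, LHX5-AS1 and SAMD3, were 75.1% and 78.1%. The direction of that share turned with the clustering, as it was 86.1% and 78.5% without centring within libraries. At resolution 1.0 it was 45.3% and 71.2%. IRX-like cells, marked by IRX genes and CRABP1, were 476 and 255 cells. A cluster marked by TOP2A, UBE2C and CENPF, genes of dividing cells, held 87 cells at D24 and 21 at D26. The GnRH-GABA-like cells of D24 lay mostly in 1 cluster (458 cells, led by DLX6-AS1 and GAD2) and those of D26 mostly in another (1399 cells, led by GNRH1 and SCGN). The class also held a cluster with a median of 17137 UMIs, with 62 and 263 cells. Its marker score was 1.27 for this class and 0.415 for Glut-like. No GnRH-GABA-like cluster of that depth appeared without doublets. A further cluster of 45 and 239 cells had a median of 2951.5 UMIs and was led by EEF1A2. It had 0 markers of the class among its leading genes, with scores of 0.495 for this class and 0.366 for Glut-like. Whether these cells include doublets was not tested. Clusters that could not be named held 12.1% of D24 and 1.94% of D26 cells. The largest of them was led by NEUROG1, TRH, EOMES and RSPO3, which are genes that fell, so its size is not a separate result. A Glut-like cluster of 111 cells was led by the stress genes DDIT3 and ATF3.

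GNRH1, the gene of the hormone, rose over all cells and did not pass 2-fold within the class. Over all cells it was at 5.82 CPM at D22, 1131 at D24 and 3265 at D26 (log2 ratio 1.53, interval 1.52 to 1.54). Within GnRH-GABA-like cells it was at 15572 and 16991 CPM (0.13). The ratio was 0.17 without doublets and -0.16 when the libraries were clustered separately. In that last setting 621 D26 cells led by GNRH1, ISL1, NR2F2 and TAC1 stayed unnamed, because their highest marker score was for another class, and so were left out of the class. After thinning, GNRH1 was detected in 66.7% of these cells at D24 (interval 62.7 to 70.4%) and 64.3% at D26 (62.2 to 66.5%), against 72.5% and 78.7% without thinning, at medians of 7802 and 8965 UMIs. These intervals too are over cells of 1 library, and no difference between days was tested. In Glut-like cells GNRH1 was at 30.7 and 152 CPM and detected in 2.89% and 10.0% after thinning, and in IRX-like cells in 3.36% and 11.4%. The median depths were 6982 and 8390.5 UMIs in Glut-like and 6863 and 9387 in IRX-like cells. Neither class is known to make the hormone, and the source of these UMIs was not tested.

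Other genes of the lineage were compared in both ways. DLX5, a homeodomain factor of GABAergic forebrain neurons, was at 17.6 and 52.5 CPM over all cells but at 237 and 277 CPM within the class (0.23). It was detected in 2.09% of all D24 cells after thinning and 5.31% of D26 cells, a measure that uses no cluster. GAD2, an enzyme of GABA synthesis, was at 20.4 and 36.8 CPM over all cells and at 266 and 191 CPM within the class, where its ratio was thus of the opposite sign (-0.48). SLC32A1, the vesicular GABA transporter, was at 3.27 and 10.5 CPM over all cells and at 41.0 and 55.6 CPM in the class. Of 16 GnRH-GABA lineage genes compared over all cells, 12 rose and 0 fell, beside 7.38% and 2.02% of all genes, and 11 rose with the median set to 0. Of 17 compared within the class, some of which also served as its markers, 6 rose and 0 fell, beside 9.86% and 1.18% of the 9477 genes compared there. TAC1, GRIA2 and RASD1 were among the steep rises that also passed 2-fold within the class, to 228, 240 and 220 CPM from 97.3, 92.5 and 68.7 CPM. The ratio of TAC1 within the class was -0.00609 when the libraries were clustered separately, which left out the 621 D26 cells led by TAC1 among others, and 1.18 to 1.23 in the other settings. For GRIA2 and RASD1 it was 1.33 and 1.96 with separate clustering. RASD1 is a leading gene of the cluster that holds 1399 of the 1935 D26 cells of the class and 32 of its 597 D24 cells, so its rise within the class is not separate from that split.

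**Figure D4:**
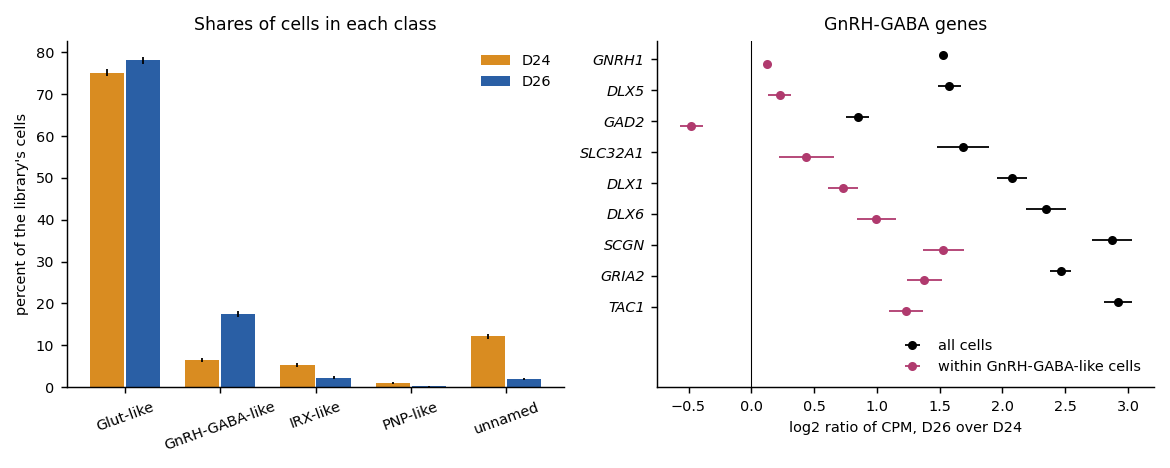
Left, percent of each library's cells in each class, with exact 95% intervals. Right, log2 ratio of CPM, D26 over D24, of 9 GnRH-GABA genes over all cells (black) and within GnRH-GABA-like cells (pink), with exact 95% intervals of counting error. GNRH1 stands at 1.53 over all cells and at 0.13 within the class, and TAC1 at 2.92 and 1.23. With the libraries clustered separately, and 621 D26 cells led by both genes among others left unnamed, the within-class values were -0.16 and -0.00609.

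The steepest changes over all cells were also looked up inside the classes. All 15 of the steepest falls were also at least 2-fold lower within GnRH-GABA-like and within Glut-like cells, and 13 of 15 within IRX-like cells. Of the 14 steep rises, 13, 13 and 12 were at least 2-fold higher in the same 3 classes. Without doublets the falls numbered 11, 15 and 7 in the 3 classes and the rises 12, 14 and 9. With the libraries clustered separately the rises in GnRH-GABA-like cells numbered 10. The genes had been chosen over all cells, most of which are Glut-like, so this count is a description. The rises and falls of other genes within the GnRH-GABA-like class set cells of mostly 1 cluster at D24 against cells of mostly another at D26. Within Glut-like cells RSPO3 went from 469 to 10.6 CPM and GNG5 from 250 to 13.6 CPM, and within GnRH-GABA-like cells RSPO3 went from 60.7 to 1.81 CPM and GNG5 from 173 to 24.8 CPM. EOMES had 40 UMIs in GnRH-GABA-like cells at D24 and 1 at D26, so its ratio there is set by counting (interval -12.53 to -4.63). Free RNA from Glut-like cells can add to such low levels, and its part was not tested. GABRA2 went from 39.9 to 298 CPM in Glut-like and from 5.83 to 50.4 CPM in GnRH-GABA-like cells. The latter include the cluster with a median of 17137 UMIs, and its part in this change was not tested. Within Glut-like cells 670 of 9705 genes rose (6.90%) and 171 fell (1.76%).

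**Figure D5:**
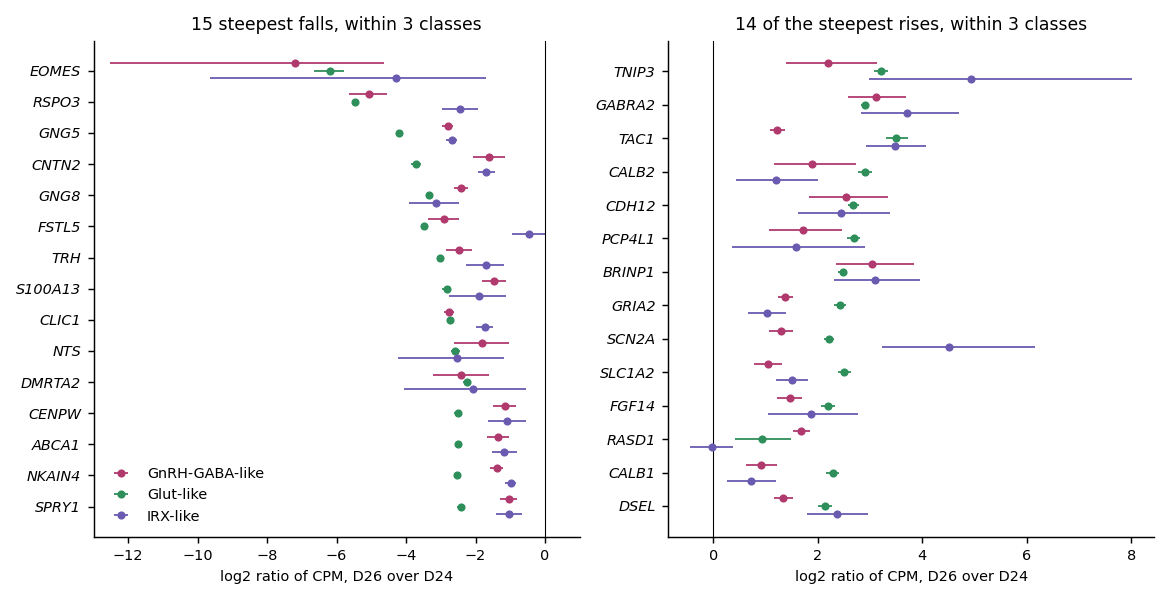
Log2 ratio of CPM, D26 over D24, of the 15 steepest falls and 14 of the steepest rises, within GnRH-GABA-like, Glut-like and IRX-like cells. Bars are exact 95% intervals of counting error. All points of the left panel are below 0, from -7.19 to -0.46, and in the right panel RASD1 in IRX-like cells stands at -0.03.

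For some genes the ratio differed between the classes. ALCAM, an adhesion molecule of growing axons, went from 13.1 to 99.0 CPM within GnRH-GABA-like cells (2.92) and stayed at 16.2 CPM within Glut-like cells. PCP4, a calmodulin regulator, and CDH6, a cadherin, fell within GnRH-GABA-like cells, from 75.4 to 16.8 and from 86.2 to 21.7 CPM, and were under 2 CPM in Glut-like cells. SOX2 fell there too, from 91.1 to 34.6 CPM. PCP4, CDH6 and SOX2 are leading genes of the cluster that holds most of the D24 cells of the class, so their fall is not separate from that split. ENC1, an actin-binding protein of neurons, fell from 86.0 to 13.8 CPM within Glut-like cells (-2.64) and was at 28.1 and 53.8 CPM within GnRH-GABA-like cells (0.93, with 0.02 when the libraries were clustered separately and 1.66 without doublets). PAX6 rose from 29.8 to 125 CPM within Glut-like cells and was at 121 and 89.5 CPM within GnRH-GABA-like cells. None of these differences between classes was tested. Shared by both were the rise of the presynaptic protein SYP, from 31.0 to 115 CPM in GnRH-GABA-like and from 52.5 to 169 CPM in Glut-like cells, and the fall of the growth factor MDK, from 750 to 203 and from 619 to 216 CPM.

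In IRX-like cells ROBO3, which is among the leading genes of their cluster, was at 416 CPM at D24 and 37.9 at D26. In Glut-like cells it was at 12.3 and 2.38 CPM. DLL3, a Notch ligand of newborn neurons, was at 382 and 85.6 CPM in IRX-like cells, beside 89.5 and 29.0 CPM in Glut-like cells. NEUROG1 was at 104 and 39.1 CPM in IRX-like cells. Of 9631 genes compared there, 1253 rose (13.0%) and 207 fell (2.15%), at 3627691 UMIs for D24 and 2559657 for D26. Of lists for other cell types, the 7 epithelial, 9 mesenchymal and 7 endothelial and blood markers summed to 6.61, 4.58 and 2.95 CPM at D24 and to 5.03, 2.55 and 0.441 CPM at D26. KRT5, TP63 and HBG1 were at 0 in both libraries. Of the oligodendrocyte markers SOX10 and CSPG4 were at 0 in both libraries, and MBP was at 6.44 and 18.4 CPM.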

How the data were processed

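Single-cell RNA sequencing libraries of day 24 and day 26 cells were analysed, 1 per day, with day 22 for earlier levels. The deposited count matrices hold UMI counts per gene and barcode, made by the authors with Cell Ranger 3.1 on GRCh38 per the submitters' processing notes. Barcodes with at least 1500 UMIs, 1000 genes and a mitochondrial share under 20% were kept. Depth is given in the report. Doublets were scored but kept, since the automatic threshold marked 0 cells in both libraries. A score over 0.25 was reached by 620 cells at day 24 and 841 at day 26, and removing them was an alternative.

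UMIs were summed over cells and scaled to CPM. No test was possible with 1 library per day, so a gene was called when it differed by at least 2-fold and its mean was at least 5 CPM. Intervals are exact at 95% (Poisson, binomial, Clopper-Pearson). They cover counting error only, and UMIs of the same cell vary together, which makes them narrower than the real spread. On simulated Poisson counts for 9798 genes with 200 changed, intervals held 95.2% of unchanged ratios. Such counts carry counting error only, so this checks the calculation and not the spread between cells or libraries. Variation between libraries was not tested.

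Cells of both days were clustered together on 2000 variable genes, leaving out genes of the lists other than the markers, with values centred and scaled within each library, 30 components, 20 neighbours and Leiden resolution 0.5. Genes named are the 15 largest and 15 smallest ratios over all cells with a mean of at least 25 CPM, the 10 of each within each main class, members of the gene lists and genes the study itself follows. Items withheld from the text are not reported here, 1 of the 15 largest ratios among them. CLSTN2 was found by a separate screen. The members and lists were chosen with earlier results of these data known. Alternatives were other cell filters, scalings, gene filters, folds and clusterings. Gene lengths were those of GENCODE v44. The other count tables of the series were not used here. Software was Python 3.11.15 with scanpy 1.11.5, SciPy 1.17.1 and leidenalg 0.10.2.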

Additional observations from a re-analysis of the deposited data

Results flagged for a closer look

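CLSTN2, which encodes a calsyntenin of the postsynaptic membrane, had ratios of opposite sign in the main classes. It was the 1 gene of 7380, each with a mean of at least 10 CPM in both classes, that passed 2-fold upwards in one class and downwards in the other. Within GnRH-GABA-like cells its level went from 9.65 CPM at D24 to 40.3 at D26 (log2 ratio 2.06, interval 1.64 to 2.51). Within Glut-like cells its level went from 28.2 to 10.3 CPM (log2 ratio -1.45, interval -1.58 to -1.32). The difference was not tested, since each day is 1 library.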

How the results depend on the processing

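Counts over all cells, 720 higher and 197 lower, depended on the threshold and the scale. They were 2868 and 461 at 1.5-fold, 67 and 50 at 4-fold, 1155 and 473 at a mean of at least 1 CPM, 232 and 75 at 25 CPM, 2791 and 1670 with no filter on genes, and 245 and 376 with the median set to 0. Under the other 6 settings both counts stayed within 1.5 times. The GnRH-GABA-like share was higher at D26 in every clustering tried, with a D26 share of 12.1% with separate clustering of each library, where 621 D26 cells led by GNRH1 stayed unnamed, and 16.4% without doublets. The Glut-like share at D24 was 45.3% at resolution 1.0, 86.1% without centring and 78.8% with each library on its own. At D26 it was 71.2% at resolution 1.0 and 79.3% without doublets, and 78.5% without centring, so its direction changed with the clustering. The IRX-like share at D26 was 3.35% at resolution 1.0, where a cluster led by DDIT3, with 114 D26 cells, was named IRX-like. The marker scores of that cluster were 0.362 for IRX-like and 0.354 for Glut-like. All within-class counts stayed within 1.5 times. Of 76 named ratios past 2-fold within GnRH-GABA-like cells, 12 no longer passed without doublets and 8 with separate clustering, where TAC1 changed sign, to -0.00609. Of 107 named ratios past 2-fold over all cells, 17 no longer passed with the median set to 0 and 0 changed sign. Counting smaller ratios, 18 of 200 changed sign there, and 6 of 193 with CPM taken without mitochondrial and ribosomal protein genes. No paired analysis was possible because each day is 1 library. The causes were not tested.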

Other observations

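Stress and metabolic lists are given beside the 7.38% of all genes that rose and the 2.02% that fell. Of 13 immediate early and heat shock genes compared, 2 rose and 2 fell, and with the median of all genes set to 0 the counts were 0 and 3. The small heat shock protein gene HSPB1 went from 22.4 to 5.50 CPM and the immediate early gene IER2 from 67.9 to 21.3 CPM, while IER5 and the heat shock gene HSPA1A rose, the latter from 8.44 to 19.4 CPM. Of 16 genes of the unfolded protein and integrated stress response 0 rose and SDF2L1, a chaperone cofactor of the endoplasmic reticulum, fell from 10.2 to 3.77 CPM. The median of that list was -0.11, and 12 of the 16 lay below the median of all genes. With the median set to 0, 3 of them fell. Of 10 p53 targets compared, AEN and PHLDA3 rose and 0 fell, against 0 and 1 with the median set to 0. Among targets left out for a mean under 5 CPM, CDKN1A went from 5.58 to 1.94 CPM and PMAIP1 from 3.72 to 0.893 CPM. HRK, also left out, went up, from 1.05 to 2.04 CPM. FAS, left out too, was at 0.0712 and 0.130 CPM, on 5 and 13 UMIs (interval -0.71 to 2.71). None of the 17 glycolysis genes or 9 low oxygen genes compared passed 2-fold in either direction, and 1 glycolysis gene fell with the median set to 0. TPI1, a glycolytic enzyme, was lowest, at 323 and 191 CPM.

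Of 9 progenitor and radial glia genes, 3 rose and 2 fell, beside 7.38% and 2.02% of all genes, or 1 and 3 with the median set to 0. NES, an intermediate filament of neural precursors, went from 39.8 to 86.9 CPM and SOX1, a factor of neural precursors, had a log2 ratio of 1.12, while CCND1, a cyclin of the G1 phase, went from 11.1 to 2.37 CPM and SOX9 from 12.1 to 4.42 CPM. Of 8 long noncoding RNAs compared, MIR7-3HG rose, from 26.5 to 64.7 CPM, and LINC01551 fell, from 199 to 99.0 CPM. With the median set to 0, 0 rose and 1 fell. The 7 pluripotency markers summed to 15.3 CPM at D24 and 6.05 at D26, and 0 of them reached a mean of 5 CPM.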
